A study of Mus musculus with 20 samples.

Results

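Gene expression at the opening of meiotic prophase was compared with expression near its end in male germ cells of the mouse. The comparison took 6 of the 20 arrays of the series: the 3 labelled leptotene/zygotene on the early side, and the 1 labelled late-pachytene with the 2 labelled diplotene on the late side. All cells came from testes of C57BL/6 x DBA/2J F1 males of 10 to 16 weeks by the labels, with no mutation or treatment in any group. The methods of the study name the parent as the J substrain of C57BL/6 and give a lower upper age than the labels. They were stained with Hoechst 33342, a dye that enters living cells and binds DNA, and separated by flow cytometry on DNA content and chromatin state. Each array measured RNA pooled over several sorts on an Affymetrix MOE430 version 2 chip, with labelling from oligo-dT primers, so the signals read mainly the 3′ ends of polyadenylated transcripts. The labels call the numbered arrays biological replicates but tie no array to a single animal. The p-values measure only the spread between such pools, which on the joined late side includes the difference between late-pachytene and diplotene. The early fraction mixes leptonema with zygonema. In bulk fractions, fewer cells of a type and less RNA per cell cannot be told apart.

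Meiosis turns a diploid spermatocyte into haploid spermatids through a single round of DNA replication and a pair of divisions. In leptonema the chromosomes condense along protein axes and the enzyme SPO11 breaks the DNA. In zygonema the recombinases pair homologous chromosomes, and the synaptonemal complex begins to zip them together. By late pachynema the autosomes are fully synapsed, crossovers are set and the unpaired X and Y chromosomes lie in a silenced sex body. In diplonema the synaptonemal complex comes apart, while many transcripts that spermatids will translate later have already been made.

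A probe set was tested where its log2 signal reached 5 (a signal of 32) in at least 2 of the 6 arrays, as 19735 of 45037 did. limma called 12403 of them different at an adjusted p under 0.05, or 62.8%; 5629 were higher in the late arrays (28.5%) and 6774 lower (34.3%). With each gene represented by its brightest probe set, 10932 genes were tested, of which 66.8% were called: 3368 rose (30.8%) and 3937 fell (36.0%), and the median change over all genes was -0.17 on the log2 scale. The 3 arrays of one side all lay beyond the 3 of the other for 69.8% of the probe sets, with the late arrays below in 38.4%. Median centring of the arrays moved the median change up by 0.22 and made 51.1% of the calls rises in place of 45.4%. Falls reached further than rises: 279 probe sets fell by at least 5 on the log2 scale and 40 rose by as much. In 40.6% of the falls and 26.3% of the rises the low side had a mean under log2 5, where signals are close to background and the size of a change is uncertain. With values under 5 raised to 5, 11179 of the 12403 calls remained.

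Several libraries stood apart. Among the 5629 rises, leptotene/zygotene replicate 3 was the highest of its group in 60.3%, and its correlation with each late array over the tested probe sets (0.62 to 0.71) exceeded that of replicates 1 and 2 with the same array (0.49 to 0.65). Among the 6774 falls, diplotene replicate 2 was the lowest late array in 65.3% and late-pachytene the highest in 60.4%. Without leptotene/zygotene replicate 3 there were 5203 rises and 6250 falls, and without diplotene replicate 2 there were 5473 and 6536. With the single late-pachytene array as the whole late side, 3588 rose and 4938 fell. By a match of signals to a supplementary table of the study, leptotene/zygotene replicate 1 and late-pachytene shared an array project, as did leptotene/zygotene replicate 2 and diplotene replicate 2. With the array project as a block 4963 probe sets rose and 6139 fell. Within the first of these projects the rises and falls had median changes of 2.32 and -2.20, and within the second of 2.30 and -2.69, in arrays that also chose the calls.

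Markers of other cells were read in the same arrays. Of 13 Sertoli cell markers, 5 to 7 reached log2 5 in each array, and their summed signal was 6757 to 10170 in leptotene/zygotene, 1591 in late-pachytene, and 9359 and 2114 in diplotene replicates 1 and 2. Clu, the secreted chaperone clusterin, led them in every array, and Cst12, Aard, Cst9, Inha and Wt1 were tested too. Cst12 read 943 to 1974 in leptotene/zygotene, 313 in late-pachytene, and 2106 and 483 in diplotene, and Wt1, a transcription factor of Sertoli cells, 47.4 to 65.1, then 17.2, and 48.2 and 16.1. Sox9, Fshr, Amh, Gata1, Gata4, Dhh and Rhox5 were below the filter. The macrophage and leukocyte list (14 genes, summed signal 115 to 335) stayed near background, with at most 3 genes at log2 5 in any array. Of 5 Leydig cell genes the sum was 243 to 322 early and 47 to 125 late. The 11 myoid and endothelial genes summed to 704 to 2743 early, led by Acta2, the smooth muscle actin, and to 421 to 715 late. All 14 round spermatid markers reached log2 5 in all 6 arrays, with sums of 33064 to 51585 early, 16339 in late-pachytene, and 36242 and 34897 in diplotene. The 11 spermatogonial markers summed to 15198 to 17081 early, led by Crabp1, and to 3116 to 5494 late, led by Id4. The part of these cells in the results was not tested.

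The stage labels were read against genes of each stage. These lists were chosen with earlier results of these data known, so they are no independent check of the labels. All 14 measured genes of later prophase, among them Piwil1, Ldhc and Hspa2, rose with a median of 2.69 on the log2 scale. With values under log2 5 raised to 5, 1 of these calls was lost. Of 9 measured genes of earlier prophase 4 fell and 0 rose. Stra8, Mei1, Mei4 and Dmc1 fell, whereas Sycp3, Rec8, Smc1b, Hormad1 and Meiob did not pass. Prdm9, the methyltransferase that places recombination hotspots, was under a signal of 32 in every array, with 23.9, 24.5 and 19.5 in leptotene/zygotene and 4.5 to 4.9 in the late arrays.

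**Figure D1:**
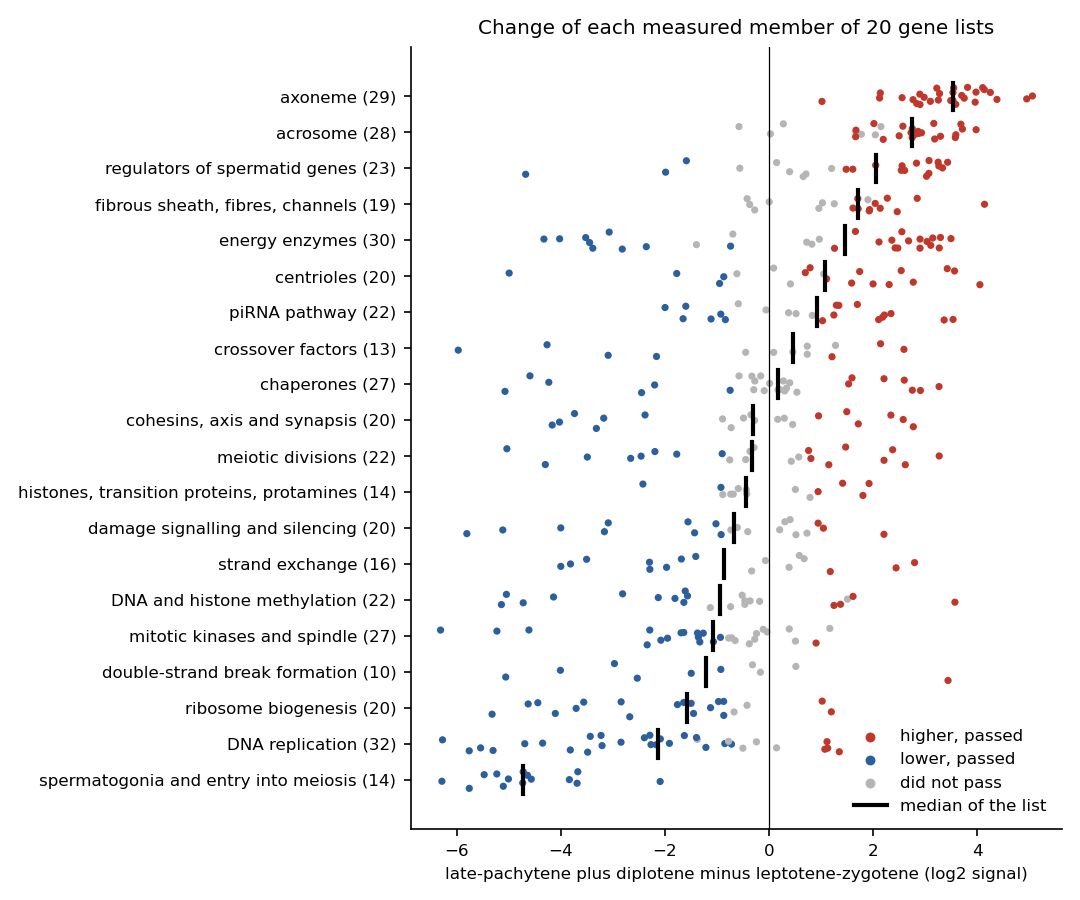
Change of every measured member of 20 gene lists, as late-pachytene plus diplotene minus leptotene/zygotene on the log2 scale, with the number of members in parentheses and a bar at each median. Medians run from -4.73 for genes of spermatogonia and meiotic entry to 3.53 for the axoneme, where all 29 points are red; most lists in between hold both colours.

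Genes that carry spermatogonia into meiosis were abundant in the leptotene/zygotene fraction and had collapsed by the late stages. Their mean log2 signal was no lower in leptotene/zygotene (10.66) than in the spermatogonia (10.09) or pre-leptotene (10.32) fractions. All 14 measured members of that list fell, with a median of -4.73. Stra8, the retinoic acid target that licenses meiotic initiation, gave signals of 5967, 4240 and 5126 in leptotene/zygotene replicates 1 to 3, 416 in late-pachytene, and 296 and 78.8 in diplotene. The early arrays lay far above the late ones, of which diplotene replicate 2 was lowest (change -4.57, standard error 0.60, limma adjusted p = 0.000559). Kit, the receptor for stem cell factor on differentiating spermatogonia, read 1567, 4778 and 3867 early against 59.9, 28.1 and 36.3 late. Its fall of 6.29 (standard error 0.50, limma adjusted p = 0.00013) was among the deepest in the comparison. Dmrt1, a transcription factor that holds spermatogonia out of meiosis, fell by 5.11, and Dazl, the RNA-binding protein that gives germ cells the competence to enter it, by 3.67. Sohlh1, Zbtb16, Lin28a and Sall4, regulators of spermatogonia, fell (changes of -5.01 to -5.76), and Rarg, a retinoic acid receptor, fell by 2.09. Of 10 tested spermatogonial markers 9 fell; the other, Id4, an inhibitor of helix-loop-helix factors known from stem spermatogonia, read 377, 1175 and 664 early and 4627, 2721 and 4917 late, and rose by 2.57 (limma adjusted p = 0.00233).

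DNA replication genes went down with them. Of 32 measured members 23 fell and 4 rose, with a median of -2.13. The MCM proteins form the helicase ring that opens the double helix. Mcm2 read 2466, 3905 and 4387 in leptotene/zygotene, 121 in late-pachytene, and 51.7 and 14.6 in diplotene. Every late array lay at least an order of magnitude below every early one, and diplotene replicate 2 was lowest (change -6.27, standard error 0.72, limma adjusted p = 0.000332). Mcm4, Mcm3, Mcm5 and Mcm6 fell (changes of -5.54, -4.35, -3.82 and -3.23), while Mcm7 fell by only 0.85, from 11704 to 12084 early to 6529 to 6645 late. The loading factors Orc1 and Cdt1 fell (changes of -5.76 and -5.30). Pcna, the sliding clamp of the fork that also serves in repair, overlapped between the sides (7656 to 13976 early, 7947 to 10599 late, change -0.24). Members of the same complexes went the other way: Gins1 and Gins2, subunits of the GINS part of the replicative helicase, rose by 1.07 and 1.13, the clamp loader subunit Rfc2 by 1.35 and the origin protein Orc2 by 1.11.

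The stretches just upstream of the start sites of Orc1 and Mcm6 are shown because both genes fell and both hold letters bound by E2F, the transcription factor family that drives S-phase genes. They are 120 bases ending at the base before the RefSeq start (GRCm38.p6), with the searched E2F letters in capitals. Orc1 lies on the plus strand at chr4:108579334-108579453, and Mcm6 on the minus strand at chr1:128359706-128359825. In promoters of 300 bases Mcm2, Tk1, Fen1, Rfc5, Rrm2, Lig1, Orc6, Mcm10 and Cdc45, which also fell, held no E2F letters.
Orc1: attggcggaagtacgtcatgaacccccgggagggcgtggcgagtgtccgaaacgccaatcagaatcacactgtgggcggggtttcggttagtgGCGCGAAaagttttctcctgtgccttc
Mcm6: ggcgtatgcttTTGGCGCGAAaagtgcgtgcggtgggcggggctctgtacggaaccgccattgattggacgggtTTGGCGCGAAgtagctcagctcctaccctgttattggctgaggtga

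Mitotic and nucleolar genes followed. Of 27 genes of mitotic kinases and the spindle 15 fell and 1 rose (median -1.07). Cenpa, the histone variant that marks centromeres, read 6026, 6677 and 6447 early and 329, 103 and 15.2 late (change -6.31, standard error 0.98, limma adjusted p = 0.00114). The cyclin Ccna2 fell by 5.23 and the phosphatase Cdc25b by 4.61. Kinases that the meiotic divisions also use overlapped between the sides and did not pass: Plk1 changed by -0.78, Cdk1 by -0.38 and Aurka by 1.17. The kinetochore protein gene Nuf2 rose, by 0.90. In ribosome biogenesis 16 of 20 genes fell and 2 rose (median -1.57). Ncl, which encodes nucleolin, read 16056, 21466 and 23158 early against 1485, 840 and 621 late in its brightest probe set, a fall of 4.44 (limma adjusted p = 0.000148). Fbl, the methyltransferase fibrillarin, fell by 3.56, and Npm1, nucleophosmin, by 0.97.

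Genes that cut and repair DNA in meiosis held both falls and rises, as did all tested genes (36.0% and 30.8%). In the formation of double-strand breaks 6 of 10 measured genes fell and 1 rose. Rec114 and Mei4, partners of SPO11 on the chromosome axis, fell (changes of -4.01 and -2.53), and Mei1 fell by 2.97. Atm, the kinase that answers breaks and limits their number, read 1313, 1715 and 1372 early and 84.1, 45.6 and 21.7 late, with no overlap (change -5.06, standard error 0.49, limma adjusted p = 0.000193). Spo11 itself went the other way. It read 165, 430 and 442 in leptotene/zygotene, 2286 in late-pachytene, and 2322 and 7518 in diplotene, all late arrays above all early ones (change 3.44, standard error 0.59, limma adjusted p = 0.00183). A single probe set stood for Spo11, and splice forms were not separated.

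Of 16 strand exchange genes 8 fell and 3 rose. Dmc1, the meiotic recombinase, read 250, 338 and 122 early and 44.1, 54.7 and 36.7 late, a fall of 2.29 (limma adjusted p = 0.00239). Tex15, which recombinase loading requires, fell by 3.81 and Brca1 by 4.00. The single-strand binding protein genes parted: Rpa2 and Rpa3 fell (changes of -3.51 and -2.30), while Rpa1 changed by 0.67 and did not pass. Psmc3ip and Mnd1 encode the partners of the HOP2-MND1 complex that assists DMC1. Psmc3ip rose from 713, 1033 and 1280 to 7790, 6687 and 6052 (change 2.79, limma adjusted p = 0.000307), whereas Mnd1, with no late signal above 12.4, fell by 1.97. Hsf2bp, a BRCA2 partner in meiosis, rose by 2.44. Brca2 did not pass (change -0.34).

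In the crossover list 4 of 13 genes fell (30.8%) and 3 rose (23.1%), near the shares over all genes. The falls were Tex11, Pms2, Exo1 and Msh6, with changes of -5.97, -4.27, -3.09 and -2.16. The rises were Mus81, a nuclease for crossovers outside the main pathway, Mlh3, the mismatch repair protein that marks crossover sites, and Top3a, a topoisomerase that undoes joint molecules, by 2.59, 2.14 and 1.21. Mlh3 read 205, 233 and 195 early and 1190, 992 and 680 late, so its groups did not touch. Msh4, which stabilises early crossover intermediates, had late arrays all above early ones at low signals (86.1, 163 and 47.6 against 314, 172 and 175) but did not pass (change 1.28, limma adjusted p = 0.0548). In 4 of the alternatives tried 5 crossover genes rose.

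Among 20 genes of cohesins, chromosome axes and synapsis 6 rose and 6 fell (30.0% each), near the shares over all genes, with a median of -0.31. Cohesin subunits shared with mitosis fell. Rad21, the kleisin of mitotic cohesin, read 5286, 5103 and 6767 early and 512, 328 and 188 late (change -4.17, standard error 0.40, limma adjusted p = 0.000194). Smc3 fell by 3.18 and the X-linked Smc1a and Stag2 by 4.03 and 3.74. Of their meiotic counterparts Stag3 rose by 0.95, and Smc1b and Rec8 did not pass (changes of -0.35 and -0.89). Structural genes of the synaptonemal complex went different ways. Sycp3, of the lateral element, read 9666, 12485 and 10117 early and 15367, 11386 and 9855 late, with overlapping groups (change 0.17, standard error 0.29). Sycp1, the transverse filament, changed by -0.73 and did not pass, whereas Sycp2 rose by 1.49, and Syce1 and Syce2 of the central element moved apart, by 1.71 and -2.38. Terb1, Terb2 and Majin, which tie telomeres to the nuclear envelope for homologue pairing, rose together. Terb1 read 725, 620 and 367 early and 2946, 2916 and 2489 late (change 2.34, limma adjusted p = 0.000771), Terb2 rose by 2.58 and Majin by 2.77. Trip13, the ATPase that strips HORMA proteins from synapsed axes, fell by 3.32.

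**Figure D2:**
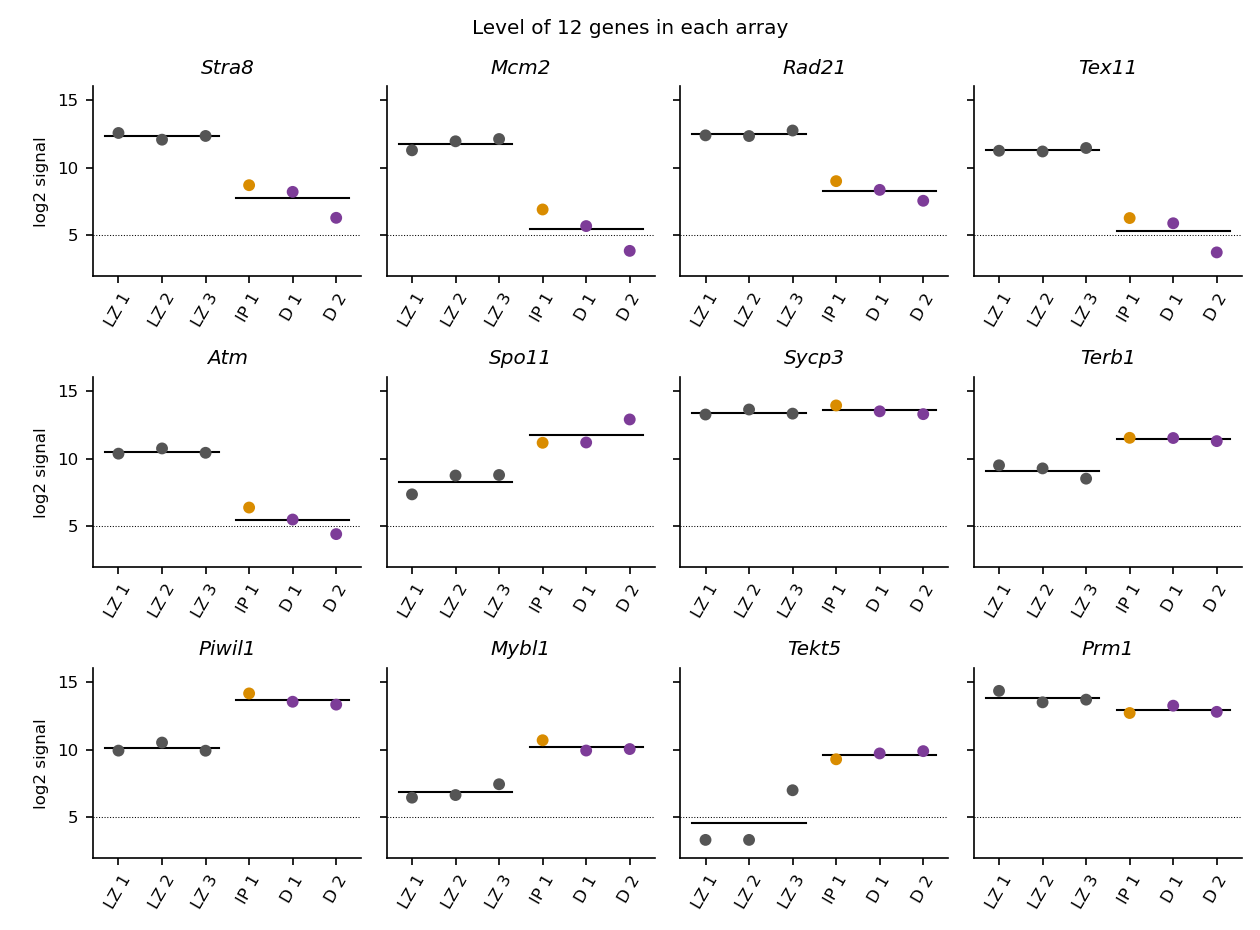
Log2 signal of 12 genes in the 6 arrays: LZ 1 to 3 are leptotene/zygotene, lP 1 late-pachytene, D 1 and 2 diplotene; horizontal bars are the means of each side and the dotted line is log2 5. Stra8, Mcm2, Rad21, Tex11 and Atm drop with no overlap, Spo11, Terb1, Piwil1, Mybl1 and Tekt5 climb, Sycp3 overlaps between the sides, and Prm1 is high on both sides.

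Damage signalling and chromatin genes also held both falls and rises. Of all tested genes 36.0% fell and 30.8% rose, and whether either list differed from these shares was not tested. Of 20 genes of damage signalling and meiotic silencing 9 fell and 3 rose. Chek1 and Chek2, the checkpoint kinases, fell (changes of -3.09 and -3.16), and Trp53bp1 fell by 1.56. Atr, the kinase that spreads over unsynapsed chromatin, rose from 3684, 4992 and 3763 to 9472, 8312 and 7710 (change 1.04, limma adjusted p = 0.0119). Mdc1, the adaptor that spreads the signal along X and Y chromatin, rose by 2.21, and H2ax, the histone that both act through, by 0.94. Their partner Topbp1 fell by 1.43. Scml2, an X-linked Polycomb-related protein of the germline, fell by 5.81 and the ubiquitin ligase Ubr2 by 5.12. Among 22 writers and erasers of DNA and histone methylation 10 fell (45.5%) and 4 rose (18.2%). The methyltransferases Dnmt3a, Dnmt3b and Dnmt1 fell (changes of -5.05, -4.72 and -2.13), and Ehmt1, of the pair that dimethylates histone H3 lysine 9, fell by 5.14, while its partner Ehmt2 did not pass (change -0.47). Of the Polycomb group Eed and Suz12 fell (changes of -1.61 and -1.57) in their brightest probe sets, another Eed probe set passed upward, and Ezh2 rose by 1.37. Kdm4d and Kdm3a, demethylases of histone H3 lysine 9, rose by 3.57 and 1.61.

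Genes of chromosome X mostly fell. Of 327 X-linked genes tested 272 fell (83.2%) and 6 rose (1.83%), with a median of -3.48, whereas of 10554 autosomal genes 34.6% fell and 31.6% rose, with a median of -0.11. With values under log2 5 raised to 5 the X-linked median was -2.50. In leptotene/zygotene 93.3% to 96.3% of the X-linked genes reached log2 5, against 47.1% in late-pachytene and 57.5% and 33.3% in diplotene replicates 1 and 2. In all 3 late arrays 125 (38.2%) were below it, compared with 8.58% of the autosomal genes. Genes below it in all 3 late arrays passed the filter only through leptotene/zygotene arrays, so the early share was partly fixed by the filter. Of the autosomal genes, under the same filter, 90.6% to 93.2% reached log2 5 in leptotene/zygotene and 83.5% to 88.0% in the late arrays. The share of falls on single autosomes ran from 31.4% on chromosome 7 to 38.2% on chromosome 19. On chromosome Y 6 of 7 tested genes fell.

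**Figure D3:**
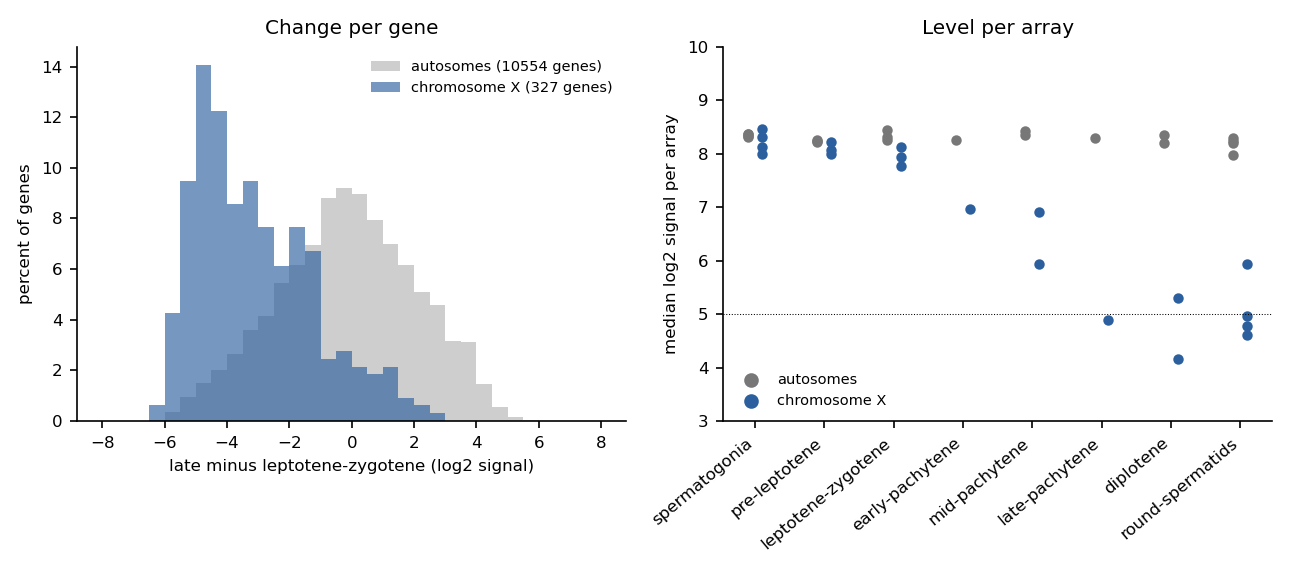
Left, the change per gene as a percentage of 10554 autosomal and 327 X-linked genes, in bins of log2 signal; right, the median log2 signal per array in the 8 fractions, with the dotted line at log2 5. The X-linked histogram sits to the left with a median of -3.48, and the X-linked median per array falls from 7.77 to 8.12 in leptotene/zygotene to 4.16 to 5.31 in the late arrays while the autosomal median stays between 8.20 and 8.44.

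Ranked with values under log2 5 raised to 5, the 10 deepest X-linked falls covered unrelated functions. Tex11, a crossover-promoting protein of the synaptonemal complex, read 2411, 2322 and 2774 early and 77.9, 59.7 and 13.5 late (change -5.97, standard error 0.63, limma adjusted p = 0.000248). Hdac6, a deacetylase of tubulin, read 7498, 10118 and 8795 early and 391.7, 263 and 76.3 late, a fall of 5.46. Huwe1, a ubiquitin ligase, read 2254, 3967 and 3560 against 121, 73.2 and 44.5 and fell by 5.43. In each of these the late arrays were all below the early ones, and diplotene replicate 2 was the lowest. Tsc22d3, Scml2, Map7d2, Lonrf3, Tex13b, Taf1 and Nxf2 were the others, with changes between -5.96 and -5.29. Tsc22d3 and Lonrf3 ranked by probe sets other than their brightest, which changed by -5.24 and -4.76. Taf1 encodes the scaffold of the general transcription factor TFIID and Nxf2 a testis relative of the mRNA export receptor.

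A few X-linked genes did not fall. The 6 that rose were Samt2b, 4933428M09Rik, Akap14, Fam122c, Fam47c and Tsga8, and of these only Tsga8 had a signal above 174 in any array. Tsga8, a testis-specific gene, read 450, 276 and 721 early, 614 in late-pachytene, and 1755 and 1791 in diplotene, so late-pachytene lay within the early range (change 1.48, limma adjusted p = 0.0433). Fam122c read 32.3, 24.6 and 27.2 early, 37.2 in late-pachytene, and 137 and 174 in diplotene, and its rise of 1.79 did not pass in 10 of the alternatives tried. The count of X-linked rises was small and unstable: it was 17 without late-pachytene, 3 without leptotene/zygotene replicate 2 or diplotene replicate 1, and 2 with values under log2 5 raised to 5. Akap4, the X-linked anchor of the sperm fibrous sheath, overlapped between the sides (1657, 1098 and 921 against 476, 1363 and 1075).

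Several X-linked genes have autosomal relatives expressed in the testis. Of 32 tested genes of such families 19 fell (59.4%) and 5 rose (15.6%), against 36.0% and 30.8% of all tested genes. The count joins the autosomal relatives with X-linked genes, and of all tested X-linked genes 83.2% fell. Pdha1 and Pdha2 encode a subunit of pyruvate dehydrogenase. The X-linked Pdha1 read 106, 102 and 106 early and 18.4, 8.0 and 13.1 late, a fall of 3.07, while Pdha2 on chromosome 3 read 204, 582 and 1040 and then 4234, 3792 and 7231, a rise of 3.29 (limma adjusted p = 0.000337 and 0.00232). Neither gene had overlapping groups. Pgk1 fell by 2.36 and its retrogene Pgk2 rose by 1.66, with late-pachytene Pgk2 (2129) below leptotene/zygotene replicate 3 (2281). Prps1 fell from 659, 567 and 581 to 11.8, 36.2 and 15.5, and Prps1l1 rose by 3.53. The centrin Cetn2 fell by 4.99, from 3564, 2506 and 3186 to 167, 89.6 and 58.8. Cetn1 rose by 3.42, from 692, 1091 and 3862 to 13094, 15326 and 17911, and the autosomal Cetn3 and Cetn4 by 0.70 and 2.77. The autosomal relatives Utp14b, Cstf2t and Eif1a changed by 0.81, 0.40 and 0.49 and did not pass beside changes of -4.63, -4.49 and -4.24 of Utp14a, Cstf2 and Eif1ax, which fell. Chml, Taf7 and Tspyl1 fell, as did their X-linked relatives Chm, Taf7l and Tspyl2. Without leptotene/zygotene replicate 2, 3 of the 32 rose.

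**Figure D4:**
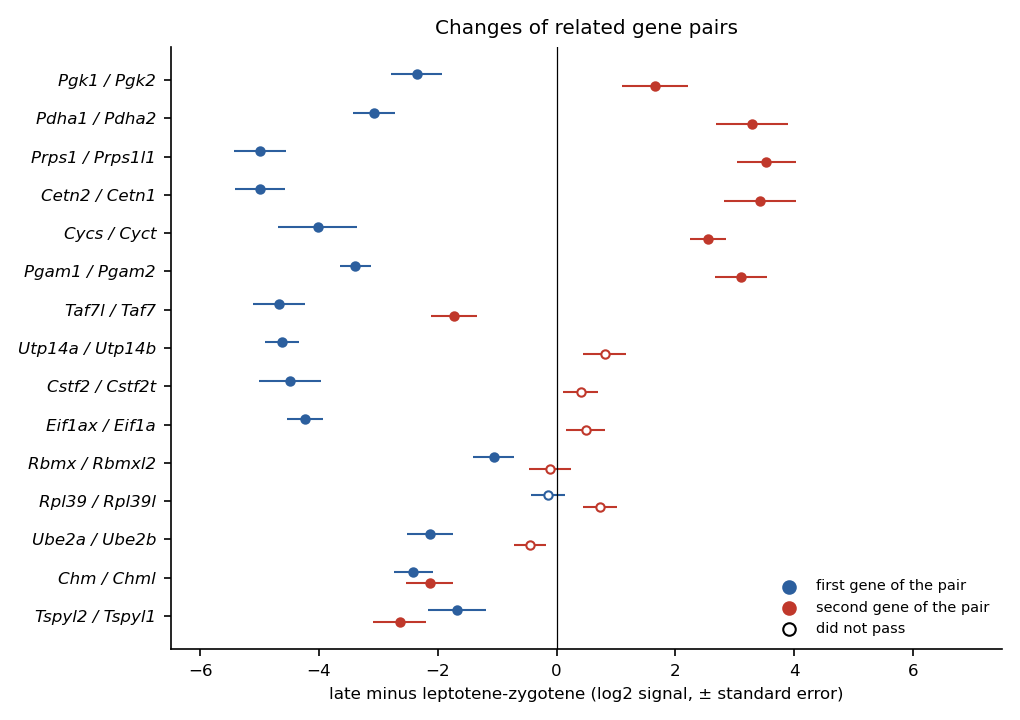
Change of 15 pairs of related genes on the log2 scale with standard errors; the first gene of a pair is X-linked except in Cycs and Cyct and in Pgam1 and Pgam2, where both are autosomal, and open circles did not pass. In the first 6 pairs the partners moved in opposite directions, from -4.99 for Cetn2 and 3.42 for Cetn1 to -2.36 for Pgk1 and 1.66 for Pgk2.

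Some forms of energy enzymes also parted where both genes are autosomal. Of 30 tested genes of energy supply 16 rose and 9 fell, the X-linked Pdha1 and Pgk1 among the falls. Cyct, the testis cytochrome c, read 1737, 1462 and 1904 early and 13134, 9528 and 7780 late (change 2.55, limma adjusted p = 0.000376), while the somatic Cycs read 9530, 5373 and 6196 and then 614, 868 and 138 (change -4.02, limma adjusted p = 0.00156). Neither gene overlapped between the sides. Hk2, hexokinase 2, fell by 4.33 and Pgam1 by 3.39, whereas Pgam2 rose by 3.11, Pfkm and Pfkp, which encode phosphofructokinases, by 3.50 and 3.27, and Eno4, a testis enolase, by 2.68. Both Ldha and Ldhc, the lactate dehydrogenases, rose, by 3.14 and 2.11. Transporters changed form too: the glucose carrier Slc2a1 fell by 3.52 and Slc2a3 rose by 1.26, the lactate carrier Slc16a1 fell by 3.45 and Slc16a7 rose by 2.47. Testis forms of cytochrome oxidase subunits, Cox8c, Cox6b2 and Cox7b2, rose by 3.04, 2.90 and 2.36. Gapdhs, the sperm form of glyceraldehyde-3-phosphate dehydrogenase, overlapped between the sides (change -0.70).

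The piRNA pathway, which silences transposons with small RNAs bound to PIWI proteins, held both rises and falls. Of 22 measured members 11 rose and 6 fell (median 0.93). Piwil1, the PIWI protein of pachytene piRNAs, read 969, 1461 and 964 in leptotene/zygotene, 17914 in late-pachytene, and 11720 and 10123 in diplotene. All late arrays were several times above the early ones, with late-pachytene highest (change 3.54, standard error 0.34, limma adjusted p = 0.000186). Mybl1, the transcription factor that drives pachytene piRNA genes, read 88.0, 100.5 and 174 early and 1645, 973 and 1050 late, a rise of 3.36. Piwil2 did not pass (change -0.59), and Piwil4, which acts before birth, fell by 2.00 from 83.1, 54.0 and 26.1. Tdrd3, Pld6, Ddx25, Tdrd5 and Tdrd7, factors of piRNA processing or of germ granules, rose by 1.70 to 2.34. Mov10l1 and Pnldc1, a helicase and a trimming nuclease of piRNA processing, fell (changes of -1.60 and -1.65). Without diplotene replicate 1, 3 of the 22 fell.

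Upstream stretches of Piwil1 and Tdrd7 are shown since both rose and both hold letters bound by MYB factors, the family of MYBL1. They are 120 bases on the plus strand of GRCm38.p6 that end before the RefSeq start, with the MYB letters in capitals. Piwil1 lies at chr5:128736126-128736245 and Tdrd7 at chr4:45965215-45965334. In promoters of 300 bases, 3 of 18 of the piRNA list held MYB letters (16.7%), against 14.5% of all risen genes. Those of Tdrd3, Pld6, Ddx25, Tdrd5, Tdrd12, Gtsf1, Tdrd1 and Mael, which also rose, held none.
Piwil1: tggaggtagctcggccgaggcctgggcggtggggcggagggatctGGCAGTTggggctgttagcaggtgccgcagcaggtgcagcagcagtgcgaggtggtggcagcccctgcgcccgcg
Tdrd7: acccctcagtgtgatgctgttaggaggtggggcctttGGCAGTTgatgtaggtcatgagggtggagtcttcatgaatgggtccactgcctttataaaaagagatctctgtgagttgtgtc

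Regulators of spermatid genes were mostly on by the late stages. Of 23 measured 14 rose and 3 fell (median 2.05). Crem, the cAMP-responsive activator of postmeiotic genes, read 94.4, 165 and 565 early and 1596, 1742 and 3239 late (change 3.33, limma adjusted p = 0.00329). Rfx2, a regulator of ciliary and spermatid genes, read 112, 335 and 554 early and 2496, 3136 and 3339 late, and rose by 3.43. The groups of both genes were separate, with leptotene/zygotene replicate 3 closest to the late arrays. Sox30 and Boll rose by 3.07 each, Brdt, a testis reader of acetylated histones, by 2.83, and Ybx2 and Ybx3, which package stored mRNA, by 2.56 and 2.54. Taf7l, an X-linked TFIID subunit, fell by 4.68, and the RNA-binding protein genes Celf1 and Cnbp fell too (changes of -1.99 and -1.59). Rfx3 read 33.8 to 41.8 over all 6 arrays.

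Genes of the sperm tail moved in step. All 29 tested axoneme genes rose, by 1.02 to 5.06 with a median of 3.53, while Dnah5, Dnah9, Dnah17 and Rsph4a did not reach the filter, and the arrays of the sides overlapped only for Tekt4. Tekt5, a tektin of the doublet microtubules, read 10.2, 10.2 and 128 in leptotene/zygotene, 623 in late-pachytene, and 840 and 944 in diplotene (change 5.06, standard error 0.94, limma adjusted p = 0.0025). Leptotene/zygotene replicate 3 stood between the other early arrays and the late ones. Hydin, a protein of the central pair, read 31.1, 34.7 and 98.1 early and 655, 841 and 976 late, a rise of 4.10. The 8 tested dynein genes rose, from Dnal1 by 2.12 to Dnali1 by 4.95, as did radial spoke genes, Rsph9 by 3.98 and Rsph1 by 2.84, and the assembly factor genes Zmynd10 and Lrrc6, by 3.75 and 3.96. In the centriole list 12 of 20 rose and 4 fell. Cntln and Cep97 rose by 4.05 and 3.56 and Cep63 by 2.54. Plk4, the kinase that starts centriole duplication, fell by 1.77, and Cep152 and Cenpj fell as well (changes of -0.95 and -0.87).

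Stretches upstream of Hydin and Tekt1 show letters bound by RFX factors, the family of RFX2, in genes of the axoneme that rose. They are again 120 bases before the RefSeq start in GRCm38.p6, at chr8:110266857-110266976 on the plus strand for Hydin and chr11:72361883-72362002 on the minus strand for Tekt1, with the RFX letters in capitals.
Hydin: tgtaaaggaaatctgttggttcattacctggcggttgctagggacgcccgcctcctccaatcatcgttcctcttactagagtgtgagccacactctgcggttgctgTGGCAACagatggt
Tekt1: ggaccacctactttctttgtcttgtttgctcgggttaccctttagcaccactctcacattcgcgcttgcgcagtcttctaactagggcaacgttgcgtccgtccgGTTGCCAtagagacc

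Genes of the acrosome, the enzyme-filled cap of sperm, rose in 21 of 28 cases and fell in 0 (median 2.74). Acr, the acrosomal protease acrosin, read 204, 326 and 1107 early and 3683, 6012 and 7506 late (change 3.71, standard error 0.63, limma adjusted p = 0.00166). Members differed in how far late-pachytene had moved. Izumo1, the sperm protein for egg fusion, read 73.9, 81.7 and 156 in leptotene/zygotene and 146, 358 and 1192 in late-pachytene and diplotene replicates 1 and 2, so late-pachytene was within the early range (change 2.01, limma adjusted p = 0.0444). Spata16, Dkkl1 and Dpy19l2 were already high in late-pachytene and rose by 3.98, 3.59 and 3.69. With no filter on low signals 13 of the 28 rose. In the list of fibrous sheath, outer dense fibres and sperm channels 11 of 19 rose and 0 fell, led by Odf4 (4.14) and the calcium channel gene Catsper2 (2.85).

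In the nuclear compaction list the protamine and transition protein genes did not rise. Prm1, the protamine that replaces histones in spermatids, read 20414, 11380 and 13040 early and 6597, 9588 and 7002 late, and was higher in all leptotene/zygotene arrays (change -0.93, limma adjusted p = 0.0418). Prm2, Tnp1 and Tnp2 changed by -0.89, -0.74 and -0.69 and did not pass. The summed round spermatid markers given above were lowest in late-pachytene. Of 14 measured genes of the list 2 fell (14.3%, against 36.0% of all tested genes), Prm1 and H3f3b, which encodes histone H3.3. H3f3b read 51.2, 120.1 and 162 early and 11.5, 9.2 and 61.2 late, with overlap (change -2.42, limma adjusted p = 0.0271), and did not pass with values under log2 5 raised to 5 (limma adjusted p = 0.0513). Another 4 rose (28.6%), near the share over all genes (30.8%). These were histones: H1f6 by 1.92 at signals of 11.4 to 62.8, H2az1 by 1.80, Macroh2a1, enriched on the inactive sex chromosomes, by 1.41, and H2ax. With values raised in that way the list lost 2 calls, H3f3b among them.

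Of 22 genes for the coming divisions 8 rose and 8 fell (36.4% each), near the shares over all genes (30.8% and 36.0%). Ccna1, the meiotic cyclin A, read 155, 268 and 1288 early and 1000, 2237 and 5527 late, with late-pachytene below leptotene/zygotene replicate 3 (change 2.62, limma adjusted p = 0.0342). Aurkc, the meiotic Aurora kinase, rose by 3.27 with separate groups, Pkmyt1, an inhibitory kinase of CDK1, by 2.37, and Hspa2, a chaperone needed to activate CDK1, by 2.21. Wee1, the related inhibitory kinase, fell by 2.66, Cdc25c by 2.19, and Sgo1, a shugoshin that protects cohesin, by 4.30. The rises numbered 3 without leptotene/zygotene replicate 1 or diplotene replicate 1 and 4 without leptotene/zygotene replicate 2. Among 27 chaperones 7 rose (25.9%) and 6 fell (22.2%). The mitochondrial Hspd1 read 4580, 5741 and 6925 early and 269, 211 and 84.0 late, a fall of 5.07, and its partner Hspe1 fell by 4.23. Testis forms, Hspb9, Dnajb13, Clgn and Dnajb3, rose by 2.60 to 3.27, and Hsp90aa1 did not pass (change 0.17).

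Ranked with values under log2 5 raised to 5, the 12 largest rises included a light chain of axonemal dynein, a histone and several genes known only by clone names. 4931408D14Rik read 70.7, 138 and 128 in leptotene/zygotene and 3256, 3624 and 6242 late, a rise of 5.28 (standard error 0.40, limma adjusted p = 0.000121). H2bc21, a histone H2B gene, read 28.5, 62.0 and 127 early and 2193, 2410 and 1595 late, and 4930444F02Rik read 127, 220 and 184 early and 5138, 4755 and 4935 late. In all of these the late arrays were more than 10 times the early ones. The others were Dnali1, Fam181a, 4921525O09Rik, Lin7a, Tmem30c, 4932702P03Rik, 1700006A11Rik, Cdhr4 and Hoxb5os, with changes from 4.68 to 5.44. The 10 deepest autosomal falls were Kit, Cenpa, Mcm2, Crabp1, Elavl2, Marcksl1, Ncl, Galnt12, Fermt2 and Noc2l, from -6.31 to -5.47. Of these 4921525O09Rik, Lin7a, Tmem30c, Elavl2, Marcksl1 and Ncl ranked by probe sets other than their brightest. Crabp1, which binds retinoic acid in the cytoplasm, read 8664, 6599 and 8521 early and 428, 193 and 46.9 late. Elavl2, an RNA-binding protein, read 2177, 3392 and 2190 early and 79.7, 61.9 and 27.3 late.

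The fractions between the compared stages placed the changes in time, as a description. For probe sets that rose by at least 1 on the log2 scale, the early-pachytene array had covered 31.95% of the distance between leptotene/zygotene and the late mean, mid-pachytene 61.2% and round spermatids 92.7%, as medians over probe sets. For falls of at least 1 these shares were 39.3%, 49.2% and 110%. The lists had courses of their own. Axoneme genes averaged 5.71 in pre-leptotene cells, 7.89 in leptotene/zygotene, 9.78 in early-pachytene and 11.05 in late-pachytene on the log2 scale. Genes of spermatogonia and meiotic entry averaged 10.66 in leptotene/zygotene and 9.39 in mid-pachytene, and then 7.09 in late-pachytene and 5.50 in diplotene. Acrosome genes averaged 11.09 in early-pachytene and 10.22 in late-pachytene, and the round spermatid markers 11.34 and 8.98 in the same arrays.

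**Figure D5:**
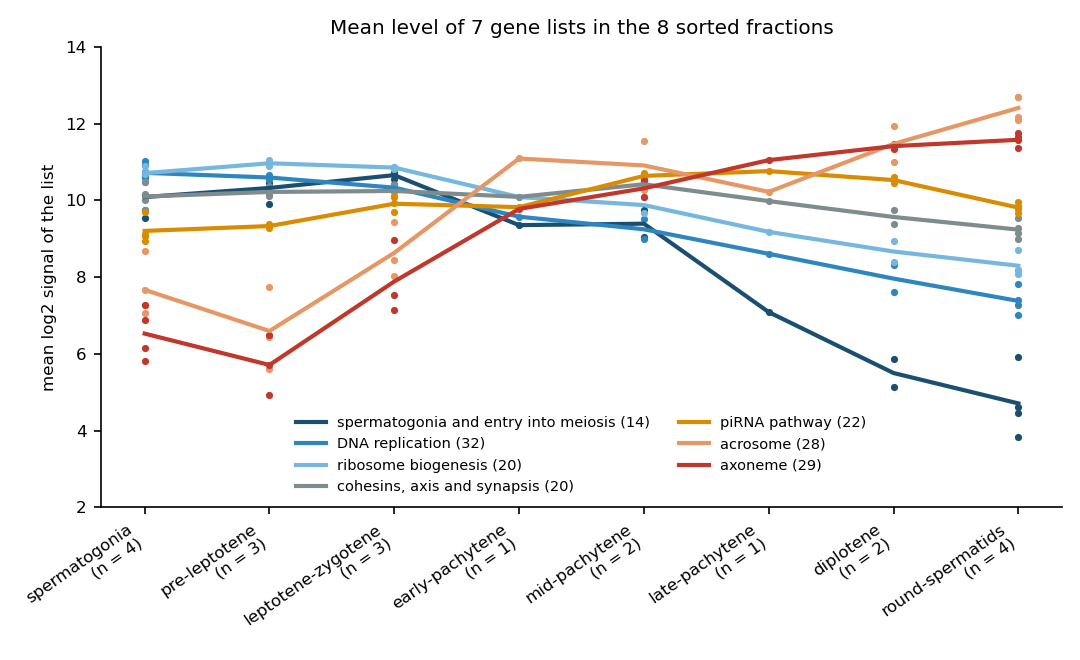
Mean log2 signal of 7 gene lists in the 8 sorted fractions; lines join the fraction means, points are arrays and the number of genes is in parentheses. Axoneme genes climb from 5.71 in pre-leptotene to 11.58 in round spermatids, entry genes drop from 10.66 in leptotene/zygotene to 4.71, and the axis and synapsis list stays between 9.24 and 10.42.

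Few probe sets separated the stages joined on the late side. Between diplotene and late-pachytene, in a fit over all 20 arrays, limma called 2 of 19735 probe sets (0.0101%), both higher in diplotene, with late-pachytene resting on a single array. Gria4, a glutamate receptor subunit, read 5.0, 4.8 and 4.8 in leptotene/zygotene, 6.2 in late-pachytene, and 45.5 and 50.2 in diplotene. Lpo, a peroxidase, read 7.4, 5.3 and 8.5, then 8.7, and then 60.6 and 50.7. Gria4 and Lpo passed the filter only through the diplotene arrays. Without diplotene replicate 1 the count was 62, and without diplotene replicate 2 it was 0.

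Start-site sequences were compared over the changes, as a description. Of the 10932 tested genes 8988 had a RefSeq promoter of 300 bases (250 before the start and 50 after). Both strands were searched. Letters counted as E2F were TTGGCGC, found above in Mcm6. TTCCCGC was also counted as E2F. The last E2F form was TTCGCGC, found above on the other strand in Orc1 and, overlapping the first form, in Mcm6. The MYB motif was AACTGNC, the RFX motif GTTGCCA, the CRE motif TGACGTC, the site of CREM, and the NFY motif CCAAT. E2F letters stood in 13.0% of the promoters of risen genes, 17.8% of fallen and 15.6% of those that did not pass, against 8.21% of all 27025 promoters. MYB letters stood in 14.5%, 9.79% and 10.7%, against 12.9% of all. RFX letters stood in 6.48%, 3.10% and 4.18%, against 4.46% of all, and in 3 of 26 axoneme promoters (11.5%). CRE letters stood in 5.03%, 6.17% and 6.04%, against 3.33% of all. NFY letters were in 39.9%, 39.8% and 38.5%, against 37.9% of all, and in 16 of 22 promoters of the mitotic list (72.7%). The E2F and CRE letters contain the bases CG. Median GC content was 59.0% in risen, 63.0% in fallen and 60.7% in other tested promoters, against 52.7% of all. In autosomal falls of at least 2 on the log2 scale, E2F letters stood in 16.5%. The part of base composition in these shares was not tested.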

How the data were processed

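RNA of sorted male germ cells was hybridised to Affymetrix MOE430 version 2 arrays. The deposited intensity values are signals that the authors normalized with GC-RMA in GeneSpring GX 7.3.1 (GC-RMA version not given in the sources used here), on the linear scale, 1 column per array. Normalization between arrays can hide a shift shared by all genes, and arrays give no counts, so their number limits the precision. Groups came from the sample titles. Signals were converted to log2, probe sets at log2 5 or more in at least 2 of the 6 arrays were kept, and limma 3.58.1 (R 4.3.3) fitted 2 groups, with Benjamini-Hochberg adjustment over all 19735 probe sets at 0.05. A gene was represented by the probe set with the highest mean over the 6 arrays. Genes were named from the platform annotation updated through RefSeq. Named genes were those that passed with no overlap between the sides, ranked by change with values under log2 5 raised to 5, each gene by its most changed probe set: the 12 largest rises, the 10 deepest autosomal and 10 deepest X-linked falls, X-linked rises, any member of a gene list, and calls between diplotene and late-pachytene. The members and gene lists were chosen with earlier results of these data known. The script was tested on simulated data. Promoters came from RefSeq (GRCm38.p6). Tables were handled in Python 3.11.15 with pandas 2.3.3 and numpy 2.4.6, and figures drawn with matplotlib 3.10.9.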

Additional observations from a re-analysis of the deposited data

Results flagged for a closer look

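Of 19735 probe sets 2 differed between diplotene and late-pachytene, the stages joined on the late side. Gria4 was higher in diplotene by 2.96 on the log2 scale (limma adjusted p = 0.00854) and Lpo by 2.67 (limma adjusted p = 0.0345). Both were higher in both diplotene arrays than in the late-pachytene array, and neither exceeded a signal of 60.6 in any of the 6 arrays. Both reached log2 5 only in the 2 diplotene arrays and passed the filter only through them. Their high signal in both diplotene arrays was therefore fixed by the filter. The late-pachytene side was 1 array, assumed to vary like the other fractions. Without diplotene replicate 2 neither passed, with differences of 2.88 for Gria4 and 2.80 for Lpo.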

How the results depend on the processing

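Over 22 settings, 659 of 696 counts stayed within 1.5 times of the value given, and of 692 values of 33 named genes 680 kept direction and call, 12 lost the call and 0 reversed. Of the losses 10 were of Fam122c, and Dnali1 and 4932702P03Rik lost theirs with late-pachytene as the whole late side. The count of X-linked rises (6) was 17 with diplotene only, 1 with late-pachytene only, 2 with no filter, 1 with a filter of log2 6 in 3 arrays, 2 with the floor, and 3 to 17 when 1 array was left out. With late-pachytene only, rises numbered 3588 in all, acrosome 5, axoneme 16, centriole 4, chaperones 4, meiotic division 3, piRNA 6, sheath and fibres 3, energy 10, spermatid regulators 5 and X-linked families 1, and falls numbered 1 for piRNA, 5 for silencing and 5 for strand exchange. Acrosome rises were 13 with no filter. Crossover rises were 5 in the fit of all 20 arrays, with 16 or 32 added to the signal and with median centring. With the array project as a block piRNA falls were 3. Leaving out 1 array gave 3 to 8 rises for meiotic division, 3 to 7 for X-linked families and 3 to 6 falls for piRNA. The cause of these moves was not tested. The calls between diplotene and late-pachytene ran from 0 to 62 when 1 array was left out. Same-numbered arrays of leptotene/zygotene and diplotene correlated in their deviations from the fraction mean (r = 0.508 and 0.321). Deviations of the 2 diplotene arrays mirror each other, so the correlations are not 2 separate observations. The labels give 2 such pairs and no shared source, and the second pair shared an array project. With the number as a replicate block there were 6174 rises and 7461 falls (5 arrays), or 6480 and 7631 (all numbered arrays), with 19 and 14 X-linked rises. Signals near the log2 floor of 5 limit the sizes of the deepest falls.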

Other observations

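Probe sets of the same gene did not always move together. Of 2358 genes with at least 2 called probe sets, 151 (6.40%) had calls in opposite directions. For Mif, a cytokine gene, 1 probe set read 19.3, 80.6 and 20.4 in leptotene/zygotene and 900, 767 and 762 late (change 4.67), while the other read 11725, 10347 and 11112 and then 717, 573 and 164 (change -4.76). Sod1, which encodes a superoxide dismutase, had changes of 3.08 and -3.60, and Armc8 of 3.77 and -3.83. Whether these probe sets read different 3′ ends was not tested.

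Genes known only by clone names (ending in Rik or starting with Gm) made up 583 of the 10932 genes tested (5.33%). They were 371 of the 3368 that rose and 64 of the 3937 that fell (1.63%). Among changes of at least 3 on the log2 scale they were 190 of 906 rises (21.0%) and 20 of 1370 falls (1.46%).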
